A study of Homo sapiens with 21 samples.

Results

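Collagen chain genes encode the alpha chains of the collagens, the triple-helical proteins that build most of the extracellular matrix. They were taken as every protein-coding gene in the human annotation (GENCODE 44, genome build hg38) whose symbol is COL, a number, A and a number, which gave 44 of 20033 protein-coding genes. The data are chromatin immunoprecipitation followed by sequencing (ChIP-seq) of estrogen receptor beta (ER-beta), a ligand-activated transcription factor that the ESR2 gene encodes. It was done in MDA-MB-231, a line of triple-negative breast cancer. The cells carried a Flag-tagged ER-beta that doxycycline switches on, and the M2 antibody against Flag was used, so the tagged receptor was measured and not an endogenous one. Whether the line is 1 clone is not stated. All groups received doxycycline at 100 ng/ml for 24 h in charcoal-stripped serum, and so all of them, the vehicle group included, expressed the receptor. A treatment of 3 h followed, with ethanol as the vehicle, with 1 nM estradiol or with the agonist LY500307, which is selective for ER-beta. For LY500307 the sample titles give 1 nM and the sample characteristics give 10 nM, so its dose is uncertain. The labels describe 4 ChIP and 3 input libraries per treatment, 21 in all, although the protocol speaks of triplicates.

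Each treatment had 1 list of enriched regions, named in the labels of its 4 ChIP libraries, and each was read as the list of a pool. How many libraries entered each pool is not stated. The lists held 2905 regions with ethanol, 26861 with estradiol and 10045 with LY500307. No replicate lists were analysed here, so the values below carry no replicate error, and differences between treatments had no test. Fold enrichment is the authors' value, the pool's ChIP signal divided by the local background at a region's highest point, its summit. Each pool had its own scaling, so folds of 1 site in different lists are given side by side and no change is read from them. The lists give no read totals, so the depth of sequencing behind each is unknown. The identity of the line and the level of the receptor cannot be checked from lists of regions. Shares carry 95% Wilson intervals, which cover only counting error, and positions are hg38, counted from 1.

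Collagens differ in the structures they build. Fibril-forming chains give banded fibrils, type IV chains give the network of basement membranes, and other classes coat fibrils, anchor epithelia, span the cell membrane or, as multiplexins, release fragments that inhibit blood vessel growth. In breast tumours, collagens make up much of the stroma that carcinoma cells meet, and the tumour cells can also make some of them. Estrogen receptors bind DNA as dimers at the estrogen response element (ERE), whose consensus is GGTCANNNTGACC, and they can also be found at sites of other factors such as AP-1, whose motif here was TGAGTCA. A region was assigned to a collagen gene when its summit lay inside the gene or within 20 kb of any annotated transcription start site (TSS) of it.

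The following 4 windows of 201 bases, centred on the estradiol summit and written on the plus strand of the hg38 reference, show the sequence at the 2 collagen regions of highest fold and at the 2 collagen regions with an unbroken ERE. Capitals mark an ERE, an AP-1 motif or an ERE half-site (AGGTCA on either strand).
COL15A1 intron 12, chr9:99021560-99021760: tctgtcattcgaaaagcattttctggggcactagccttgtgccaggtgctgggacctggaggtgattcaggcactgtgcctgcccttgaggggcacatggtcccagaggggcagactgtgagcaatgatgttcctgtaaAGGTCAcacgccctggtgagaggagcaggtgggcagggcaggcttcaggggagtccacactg
COL18A1 intron 2, chr21:45416484-45416684: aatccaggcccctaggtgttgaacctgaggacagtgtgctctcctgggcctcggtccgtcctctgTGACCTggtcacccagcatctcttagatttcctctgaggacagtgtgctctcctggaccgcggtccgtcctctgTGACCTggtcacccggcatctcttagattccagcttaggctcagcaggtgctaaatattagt
COL18A1 upstream, chr21:45386837-45387037: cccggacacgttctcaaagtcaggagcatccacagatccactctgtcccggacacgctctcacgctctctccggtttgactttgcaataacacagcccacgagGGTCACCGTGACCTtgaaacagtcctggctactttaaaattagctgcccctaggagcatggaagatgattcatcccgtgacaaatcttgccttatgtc
COL5A1 intron 1, chr9:134671404-134671604: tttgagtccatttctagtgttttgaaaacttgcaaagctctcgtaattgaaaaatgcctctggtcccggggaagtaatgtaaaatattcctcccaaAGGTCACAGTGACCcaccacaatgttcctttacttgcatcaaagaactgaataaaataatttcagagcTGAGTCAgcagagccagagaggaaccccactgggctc
The COL15A1 window, from the collagen region of highest fold in all 3 lists, held 1 half-site and no ERE even with 2 mismatches allowed. The COL18A1 intron 2 window held 2 half-sites at a distance of 74 bases, each written TGACCT, the half-site of the minus strand, and followed directly by ggtca of the plus strand, inside a stretch that occurs a second time at that distance with up to 28 bases in an unbroken match. In the COL18A1 upstream window the ERE lay 9 bases from the estradiol summit, and in the COL5A1 window it lay 3 bases from it.

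With estradiol, 32 of the 44 collagen genes had at least 1 region (72.7%, 58.2 to 83.7), where 60.7% of all protein-coding genes did. With LY500307 it was 21 of 44 (47.7%, 33.8 to 62.1, against 33.3% of all genes), and with ethanol 9 of 44 (20.5%, 11.2 to 34.5, against 14.1%). Collagen genes are long, with a median of 144.8 kb and a range of 17.3 to 494.0 kb, whereas the median over all protein-coding genes was 27.5 kb, and long genes meet more regions. Weighted to the collagen genes' lengths, the shares over all genes were 67.1% with estradiol, 39.7% with LY500307 and 17.1% with ethanol. These lay inside the intervals of the collagen shares.

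Within length classes the collagen and background shares were mostly close. Among the 26 collagen genes over 100 kb, 20 had an estradiol region, 13 an LY500307 region and 5 an ethanol region, against backgrounds of 70.6%, 44.3% and 19.1%. Of the 14 genes between 25 and 100 kb, 8 had an estradiol region, 5 an LY500307 region and 3 an ethanol region, against 64.2%, 34.4% and 15.0%. The 4 genes under 25 kb (COL1A1, COL6A1, COL9A2 and COL9A3) all had an estradiol region, 3 had an LY500307 region and 1 an ethanol region, against 54.3%, 28.4% and 11.5%. With so few short genes the intervals were wide, for example 51.0 to 100% for estradiol. When the longer lists were limited to their 2905 regions of highest fold, as many as the ethanol list holds, 10 of 44 collagen genes (22.7%) had an estradiol region against 11.6% of all genes, and 10 of 44 had an LY500307 region against 11.6%. These backgrounds of all genes were not weighted to gene length, and no interval was computed, so the effect of length on the gap is unknown.

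**Figure D1:**
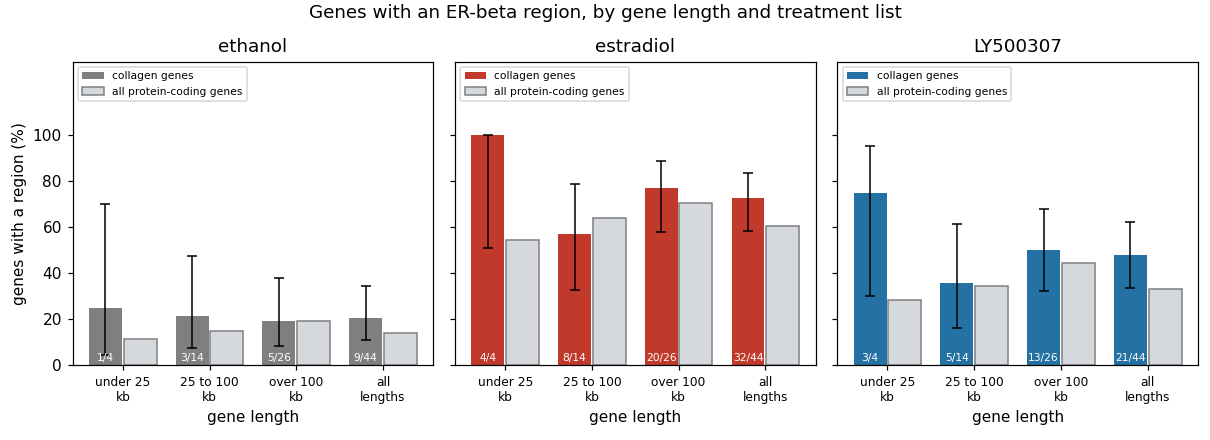
Percent of genes with at least 1 ER-beta region by gene length, 1 panel per treatment list. Coloured bars are collagen genes with their 95% Wilson intervals and counts, and pale bars are all protein-coding genes: in each panel the 4 shortest collagen genes stand farthest above their pale bar, with the widest intervals (4 of 4 with estradiol, 3 of 4 with LY500307), and the 26 genes over 100 kb lie near theirs.

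Regions at collagen genes numbered 127 with estradiol, 48 with LY500307 and 11 with ethanol, which is 0.473%, 0.478% and 0.379% of each list. Per megabase of sequence within reach of the rule this was 16.0, 6.06 and 1.39 regions, where all protein-coding genes together had 13.0, 4.76 and 1.42. The multiplexin genes COL15A1 and COL18A1 carried 26 of the 127 estradiol, 14 of the 48 LY500307 and 4 of the 11 ethanol regions. Without these genes, a choice made after the data were seen, the density at the other 42 was 13.2, 4.46 and 0.917 per megabase. The 3 genes with the most estradiol regions (COL15A1, COL5A1 and COL27A1) held 37 of the 127, or 29.1%. A collagen gene had the nearest TSS of a protein-coding transcript for 91 of the 127 estradiol, 35 of the 48 LY500307 and 8 of the 11 ethanol regions.

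Of the 44 genes, 8 had a region in all 3 lists: COL6A2, COL9A3, COL15A1, COL16A1, COL18A1, COL22A1, COL24A1 and COL26A1. A further 13 had one with estradiol and LY500307 and not with ethanol, and 10 had one with estradiol alone. COL9A1 had an ethanol and an estradiol region at different sites. The remaining 12 had none in any list: COL1A2, COL2A1, COL3A1, COL4A4, COL4A5, COL5A3, COL6A5, COL6A6, COL10A1, COL11A2, COL14A1 and COL25A1. They included the longest collagen gene, COL25A1 (494.0 kb), and COL14A1 (313.8 kb). By the same rule 60.7% of all protein-coding genes had an estradiol region. How many of all genes show each of these patterns was not counted, so the patterns have no background here.

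**Figure D2:**
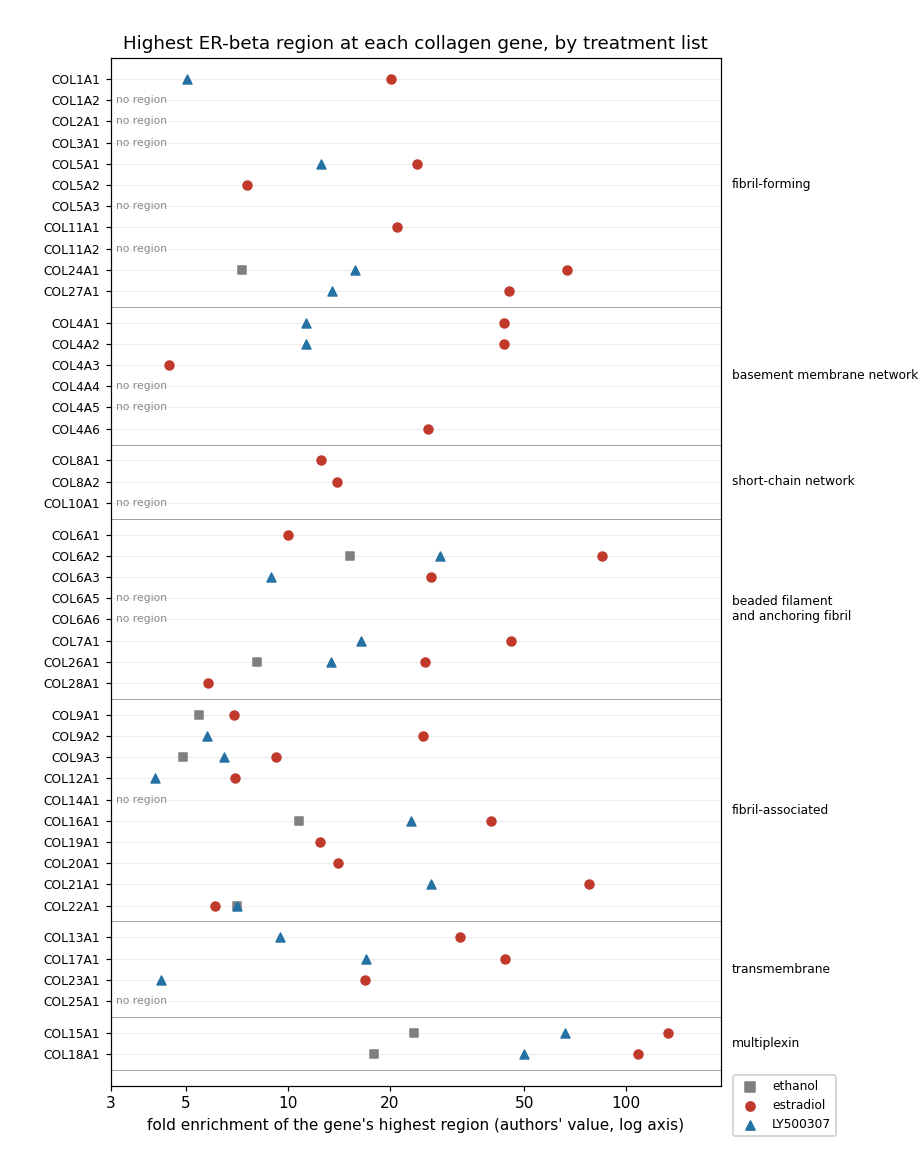
Fold enrichment (authors' value, log axis) of the highest region at each of the 44 collagen genes, grouped by structural class, with 1 symbol per treatment list. COL15A1 (132.9) and COL18A1 (108.4) are the estradiol points farthest to the right, and 12 genes have no region in any list.

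Fibril-forming collagens give tissues their tensile strength. Of these 11 genes, 6 had estradiol regions (28 regions), 4 had LY500307 regions (10) and 1 had an ethanol region (1). COL1A2 and COL3A1, which encode chains of the main fibrils of skin, bone and vessels, had none, and neither did COL2A1, the cartilage collagen gene. COL1A1, which encodes the other chain of type I collagen, had 3 estradiol regions, all outside the gene. One lay 8.34 kb upstream (chr17:50209782-50210157) with an estradiol fold of 20.1 and an LY500307 fold of 5.02, another 17.3 kb upstream (9.80, estradiol list only), and the other 29.3 kb downstream of its TSS, beyond the gene's end and nearer to the TSS of SGCA (12.1, estradiol list only). The first and the last of these held an ERE with the same substitution, A11G, counted from 1 at the first base of the consensus.

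COL24A1 encodes a minor fibril-forming chain. Its region in intron 45 (chr1:85822703-85823182) was the only one of this class in all 3 lists, with folds of 66.9 (estradiol), 15.8 (LY500307) and 7.32 (ethanol). The nearest annotated start was its own, 78.15 kb away, but with starts of protein-coding transcripts only it was that of ZNHIT6, 114.5 kb away. The ERE under the summit differed from the consensus by A11G as well. The sites of these regions are shown with the substituted base in lower case, as are the 3 free spacer bases, and the matching bases in capitals.
COL24A1 intron 45 ERE, chr1:85822882-85822894: GGTCAcctTGgCC
COL1A1 upstream ERE, chr17:50209963-50209975: GGTCAgacTGgCC
COL1A1 downstream ERE, chr17:50172304-50172316: GGTCAcagTGgCC

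COL5A1, whose chain sets the diameter of type I fibrils, had 10 estradiol regions, of which 7 lay inside the gene, and 4 LY500307 regions. Of the 20033 genes, 199 had as many estradiol regions or more. Its highest estradiol fold was 24.1, in intron 1 (chr9:134666754-134667122), with 6.39 in the LY500307 list. The intron 1 region with the unbroken ERE shown above (chr9:134671303-134671703) had an estradiol fold of 19.6 and an LY500307 fold of 12.5, and it was not in the ethanol list. It also held an AP-1 motif, the only estradiol region at a collagen gene with both an ERE of at most 1 mismatch and AP-1. COL27A1, which encodes a fibrillar chain found in cartilage, had 9 estradiol regions, all inside the gene, and 3 LY500307 regions. As many estradiol regions or more were found at 295 genes. The highest COL27A1 region lay in intron 37 (chr9:114278816-114279226), with an estradiol fold of 45.1 and an LY500307 fold of 13.5, and 3 others held an ERE with 1 mismatch (T9G, T9A and A11C). COL11A1 had 1 region, in intron 57, with an estradiol fold of 21.0, and COL5A2 had 2, the higher with a fold of 7.57. Neither was in another list.

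Type IV chains form the basement membrane network, and their genes lie in head-to-head pairs that share a promoter region. Of the 6 genes, 4 had estradiol regions (10 distinct regions), 2 had an LY500307 region, which was the same one, and none had an ethanol region. COL4A1 and COL4A2 shared 3 estradiol regions, all in intron 3 of COL4A2 and upstream of COL4A1, and none lay inside COL4A1. The highest of them (chr13:110320054-110320486), 13.1 kb from the COL4A1 TSS, had an estradiol fold of 43.5 and an LY500307 fold of 11.3. COL4A6 had 2 regions in intron 2, with estradiol folds of 26.0 and 9.50. COL4A3 had 1 region of fold 4.47, which lay 0.136 kb from the TSS of MFF, a mitochondrial fission gene.

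The short-chain network genes had regions in the estradiol list only. COL8A1 and COL8A2, which encode the collagen of the corneal and vascular endothelial lining, had 3 and 2 regions, with highest folds of 12.5 and 14.0. COL10A1, expressed by hypertrophic chondrocytes, had none. The COL8A2 region of highest fold lay 0.317 kb from an alternative TSS of that gene. Its other region lay outside the gene, 0.437 kb from a TSS of ADPRS.

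Among the 8 beaded filament and anchoring fibril genes, 6 had estradiol regions (21), 4 had LY500307 regions (8) and 2 had ethanol regions (2). COL6A2 encodes a chain of type VI collagen, which links cells to the surrounding fibrils. Its region 12.9 kb upstream (chr21:46084799-46085998) was in all 3 lists, with folds of 84.5 (estradiol), 28.1 (LY500307) and 15.3 (ethanol). It was the widest of the leading regions, at 1200 bases, and its sequence repeated itself. At a shift of 128 bases 56.7% of its estradiol region matched, and 61.4% and 62.0% of the LY500307 and ethanol regions matched at shifts of 188 and 196 bases. A self-match of 60% or more was found in 0.506% of all estradiol, 0.876% of all LY500307 and 1.48% of all ethanol regions, and whether it bears on the folds was not tested. A COL6A2 region beyond the gene's end, nearer to the TSS of FTCD, had an LY500307 fold of 5.69 and a self-match of 72.2% at a shift of 47 bases, and its estradiol fold was 20. COL6A1, the neighbouring type VI gene, had 2 estradiol regions of fold 10.0 and 7.70. The 3 estradiol regions of COL6A3 lay downstream of the gene's end, and the highest of them, with an ERE of 1 mismatch (T9C), had an estradiol fold of 26.5 and an LY500307 fold of 8.90. COL6A5 and COL6A6 had none.

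COL7A1 encodes the anchoring fibril collagen that fastens the epidermis to the dermis. It had 8 estradiol regions, of which 5 were nearer to a TSS of another gene (PFKFB4, UCN2 or UQCRC1) than to any annotated start of COL7A1. Its region of highest fold (chr3:48563936-48564315) had its summit in the last exon, exon 119, 0.339 kb from the TSS of UCN2, and it had an estradiol fold of 45.7 and an LY500307 fold of 16.5. A region 0.728 kb upstream of the COL7A1 TSS (chr3:48595392-48596254) had an estradiol fold of 31.5 and an LY500307 fold of 15.2. COL26A1 had 5 estradiol, 3 LY500307 and 1 ethanol region. Its region in intron 2 (chr7:101425306-101425680) was in all 3 lists with folds of 6.50 (estradiol), 7.51 (LY500307) and 8.13 (ethanol), and was far from its highest region, which lay 10.2 kb upstream with an estradiol fold of 25.3. COL28A1 had 1 region, of estradiol fold 5.81.

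Fibril-associated collagens decorate fibrils or link them to other matrix. Of these 10 genes, 9 had estradiol regions (25), 6 had LY500307 regions (11) and 4 had ethanol regions (4). COL21A1 had the highest fold of the class. That region (chr6:56156696-56157133) lay in coding exon 10 and had an estradiol fold of 77.5 and an LY500307 fold of 26.4, and it was not in the ethanol list. COL16A1, whose chain lies on the surface of fibrils near basement membranes, had 4 estradiol regions, each of which overlapped an LY500307 region. Of these 4, 1 lay outside the gene and 0.037 kb from a TSS of PEF1. The one in intron 2 (chr1:31701003-31701751), 2.50 kb from the TSS, was in all 3 lists, with folds of 39.8 (estradiol), 23.2 (LY500307) and 10.8 (ethanol).

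The 3 genes of type IX collagen, a cartilage component, each had an estradiol region. COL9A2 had its highest region in intron 1, 0.126 kb from a TSS of its own, with an estradiol fold of 25.0 and an LY500307 fold of 5.76. All 4 estradiol regions of COL9A3 lay nearer to the TSS of OGFR, the opioid growth factor receptor gene, and 3 of them in its promoter or 5' UTR. One of them (chr20:62804805-62805595) was in all 3 lists, with folds of 9.19 (estradiol), 6.47 (LY500307) and 4.89 (ethanol). Its summits in these lists lay apart, at 62805096, 62804954 and 62805329, so the folds may not belong to 1 site. The ethanol region of COL9A1 (chr6:70255845-70256098), in intron 21 with a fold of 5.45 and an AP-1 motif, overlapped no region of another list, while the estradiol region of that gene lay in intron 28 with a fold of 6.92. COL12A1 had the only LY500307 region at a collagen gene that overlapped no estradiol region (chr6:75205616-75205815, intron 1, fold 4.06), and it had 3 estradiol regions elsewhere, of folds 5.75 to 7.0. COL22A1 had a region in intron 48 in all 3 lists (chr8:138636318-138636551) with folds of 6.08 (estradiol), 6.38 (LY500307) and 7.07 (ethanol). With starts of protein-coding transcripts only, the nearest was that of FAM135B, 139.1 kb away, although another annotated start of COL22A1 lay 15.8 kb away. Closest to the 20 kb limit of the rule was a COL20A1 region 19.9 kb upstream of that gene's TSS, at the ARFGAP1 promoter, with an estradiol fold of 5.75. COL20A1 (4 regions, highest fold 14.1) and COL19A1 (2 regions, highest fold 12.4) were in the estradiol list only, and COL14A1 had none.

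Transmembrane collagens are cell-surface proteins whose outer part can be shed. Of the 4 genes, 3 had estradiol regions (12) and LY500307 regions (4), and none had an ethanol region. COL17A1, a part of the hemidesmosomes that tie epithelial cells to the basement membrane, had 2 neighbouring regions at exon and intron 28, with estradiol folds of 43.7 and 37.7 and LY500307 folds of 17.0 and 6.66. COL13A1, found at cell junctions and the neuromuscular synapse, had 8 estradiol regions, all inside the gene, of which 1 was in the LY500307 list (estradiol fold 32.2, LY500307 fold 9.49, in intron 2). COL23A1 had 2 estradiol regions in intron 2, of folds 16.9 and 5.36, the first also in the LY500307 list with 4.22. COL25A1, which is studied mostly in neurons, had none.

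The multiplexins, COL15A1 and COL18A1, are basement membrane proteoglycans whose ends are released as restin and endostatin. Together their density was 90.1 estradiol regions per megabase, the highest of the 7 classes, and 48.5 with LY500307 and 13.9 with ethanol. The next densest class with estradiol and LY500307 was the beaded filament and anchoring fibril genes, with 19 and 7.26, and with ethanol it was the fibril-associated genes, with 2.04. The higher densities rest on only 2 genes, and all but 1 of the other classes had between 7.71 and 15.9 estradiol regions per megabase.

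COL15A1 (chr9:98943179-99070792, plus strand) had 18 estradiol regions, and only 20 of the 20033 genes, itself included, had as many or more. It had 9 LY500307 and 2 ethanol regions. Of the 18 estradiol regions 17 lay inside the gene. When every annotated start of COL15A1 was counted, none was nearer to a TSS of another protein-coding gene. With starts of protein-coding transcripts only, 9 of the 18 estradiol and 3 of the 9 LY500307 regions were nearest to TGFBR1. The intron 12 region (chr9:99021421-99021920) had folds of 132.9 (estradiol), 65.7 (LY500307) and 23.6 (ethanol), and it ranked 224, 204 and 131 by fold in these lists. It was the highest collagen region in each. About 2 kb before it, in intron 11, another region (chr9:99019380-99019837) had folds of 104.0 (estradiol), 25.6 (LY500307) and 8.23 (ethanol), and its estradiol window held an AP-1 motif. A region 18.9 kb upstream (chr9:98924746-98925635) had an estradiol fold of 50.5 and overlapped 2 LY500307 regions, of 12.9 and 6.09. The other 15 regions inside the gene had estradiol folds from 4.20 to 36.4, and one of them, in intron 6, held an ERE with 1 mismatch (T3A), with an estradiol fold of 24.7 and an LY500307 fold of 13.2.

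COL18A1 (chr21:45405165-45513720, plus strand) had 8 estradiol, 5 LY500307 and 2 ethanol regions, and none of them was nearer to the TSS of another gene. The intron 2 region with the repeated half-sites (chr21:45415873-45416830) had a fold of 108.4 with estradiol and overlapped 2 LY500307 regions of 49.7 and 16.2, and no ethanol region. A region further along intron 2 (chr21:45427239-45428164), with an AP-1 motif in the estradiol window, had folds of 59.8 (estradiol), 38 (LY500307) and 6.87 (ethanol). Its ethanol counterpart (chr21:45427362-45427602) had its summit at 45427500 and did not reach the estradiol summit at 45427953 or the LY500307 summit at 45427943. The ethanol window held no AP-1 motif, so the ethanol fold may belong to a different site. The region with the unbroken ERE, 18.2 kb upstream (chr21:45386664-45387159), had folds of 67.7 (estradiol), 19.7 (LY500307) and 17.9 (ethanol). The intron 2 region of highest estradiol fold was absent from the ethanol list, while the upstream region of lower estradiol fold was present there.

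**Figure D3:**
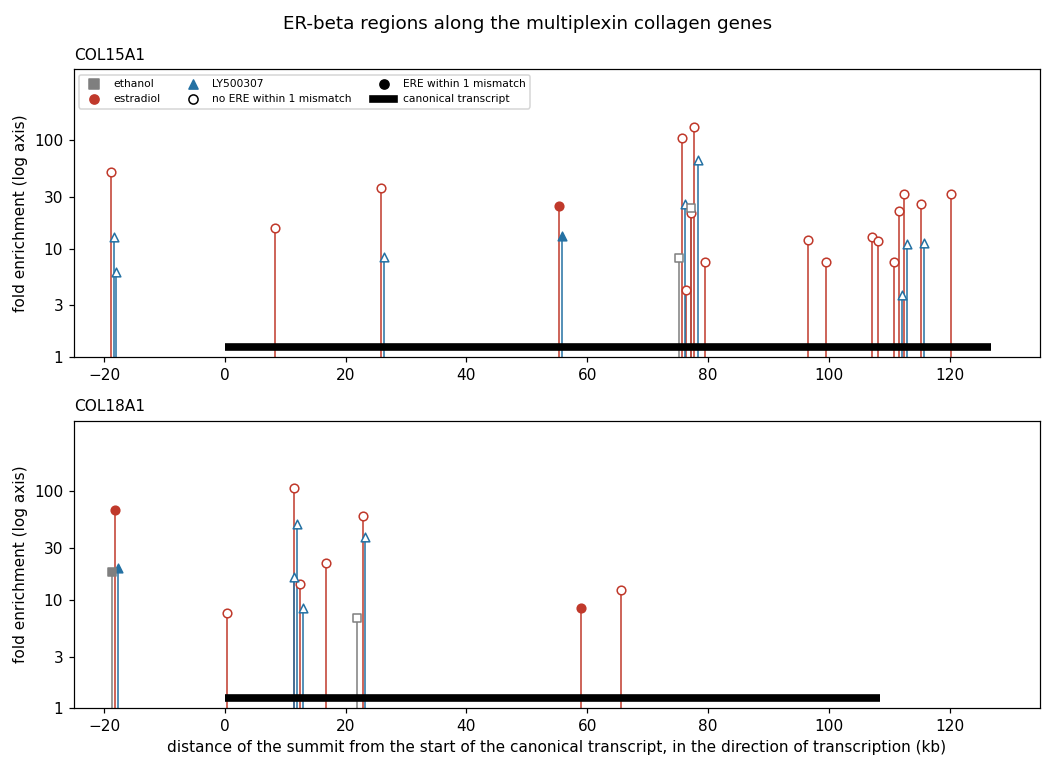
Fold enrichment (log axis) of each region along COL15A1 and COL18A1 against the distance of its summit from the start of the canonical transcript in kb, with a symbol per treatment list, filled where an ERE with at most 1 mismatch lies in the window. Ethanol and LY500307 symbols are moved sideways by 0.5 kb so that they can be told apart: the highest points in COL15A1 lie together at introns 11 and 12, and in COL18A1 in intron 2 and 18.2 kb upstream.

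Estradiol regions at collagen genes recurred in the other lists about as often as estradiol regions in general. Of 127, 45 overlapped an LY500307 region (35.4%, 27.7 to 44.1, against 33.8% of the whole list), and 10 overlapped an ethanol region (7.87% against 9.26%). From the other side, 47 of the 48 LY500307 regions (97.9% against 91.9%) and 10 of the 11 ethanol regions (90.9% against 87.0%) overlapped an estradiol region. With summits required to lie within 200 bases of an estradiol summit, it was 93.75% of the LY500307 and 72.7% of the ethanol regions. The 10 estradiol regions in all 3 lists had a median estradiol fold of 63.4 and a range of 6.08 to 132.9, and the 82 in no other list had a median of 7.50 and a highest value of 32.2. For all estradiol regions these medians were 66.1 and 7.59. Of the 10, those of COL22A1, COL26A1 and COL9A3 had estradiol folds of 6.08, 6.50 and 9.19, below their list's median of 9.50. The median fold of all collagen regions was 9.50 with estradiol, 9.39 with LY500307 and 8.13 with ethanol, beside 9.50, 8.46 and 7.0 for the whole lists.

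**Figure D4:**
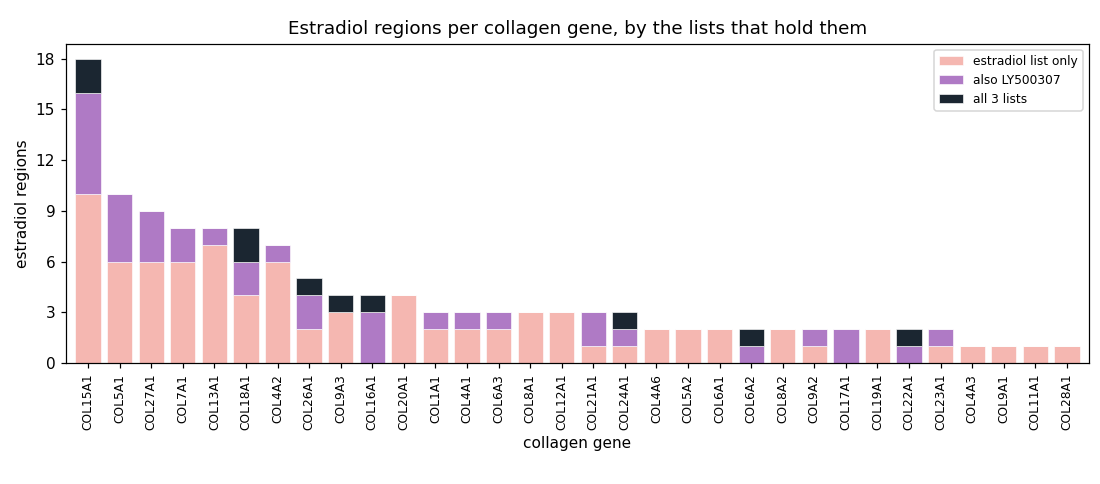
Number of estradiol regions at each of the 32 collagen genes that had one, with colours for regions in the estradiol list only, also in the LY500307 list, and in all 3 lists. COL15A1 has 18, of which 2 are in all 3 lists, and COL5A1 follows with 10, none of them in the ethanol list.

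Collagen regions lay mostly in introns. By summit, 87 of 127 estradiol regions (68.5%, 59.98 to 75.9) were intronic, where 41.9% of the whole list was. With LY500307 it was 64.6% against 43.2%, and with ethanol 72.7% against 41.1%. The rule itself sets part of this, and of the promoter shares that follow, since it takes every region inside a gene and collagen genes are long. The whole lists also hold regions that the rule gives to no gene. A background of regions assigned to all genes by the same rule was not used for these shares, so the size of that part is unknown. A promoter, from 1000 bases before to 100 after the TSS of a protein-coding transcript, held 10 of the 127 estradiol regions (7.87%, 4.33 to 13.9, against 16.4%), 5 of 48 LY500307 regions (10.4% against 14.0%) and 1 of 11 ethanol regions (9.09% against 19.2%). Of the 10 estradiol promoter regions, 6 were at a TSS of the collagen gene itself (COL5A1, COL7A1, COL8A2, COL9A2, COL12A1 and COL16A1) and 4 at that of a neighbour (ARFGAP1, OGFR, PFKFB4 and UCN2). Those of COL5A1 and COL7A1 lay just before the start of the canonical transcript. Those of COL9A2, COL16A1, COL8A2 and COL12A1 lay 0.722, 19.8, 24.7 and 87.0 kb after it, at alternative starts. The single ethanol promoter region was the one at OGFR. Along their own canonical transcripts, 10 estradiol regions lay in intron 1, 19 in intron 2, 5 in intron 3 and 48 in a later intron. A further 11 lay in an exon, 19 upstream, 14 downstream and 1 inside COL21A1 but outside its canonical transcript. The 87 intronic regions above differ from these counts because they include introns of any protein-coding gene.

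Motifs were counted on both strands within 100 bases of the summit. An ERE in which at most 1 of the 10 fixed positions differed lay in 14 of 127 estradiol regions (11.02%, 6.68 to 17.7), where 13.8% of all estradiol regions had one. Windows of the same width 2000 bases downstream of the collagen summits held 0.787%. In the LY500307 list it was 6 of 48 (12.5%, 5.86 to 24.7, against 15.7%) and in the ethanol list 2 of 11 (18.2%, 5.14 to 47.7, against 15.0%). The 14 estradiol regions with an ERE had a median fold of 12.7, and the 113 without one had a median of 9.31. For all estradiol regions these medians were 14.5 and 8.98. Of the 10 collagen regions of highest estradiol fold, 2 held an ERE with at most 1 mismatch, those of COL18A1 upstream and COL24A1. The unbroken ERE was in 1.57% of collagen and 1.65% of all estradiol regions.

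The AP-1 motif lay in 17 of 127 estradiol regions (13.4%, 8.53 to 20.4, against 13.8%), 8 of 48 LY500307 regions (16.7% against 13.7%) and 1 of 11 ethanol regions (9.09% against 10.4%). The half-site AGGTCA, which can also lie inside an ERE, was in 67 of 127 estradiol regions (52.8%, 44.1 to 61.2, against 44.7%), in 45.8% of LY500307 regions against 44.9%, and in 45.5% of ethanol regions against 35.6%. Neither an ERE of at most 2 mismatches, nor a half-site, nor AP-1 was in 31 of the 127 (24.4%, 17.8 to 32.6, against 32.3%). The background value lay inside the collagen interval in the ERE and AP-1 comparisons with all 3 lists, and just inside it for the estradiol half-site share.

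Genes that make, process or bind collagen were read by the same rule. Of 18 genes for the modification and folding of collagen chains, 14 had an estradiol region (77.8%), 9 an LY500307 region (50%) and 4 an ethanol region (22.2%), where 60.7%, 33.3% and 14.1% of all protein-coding genes did. Of 8 for procollagen processing, it was 7, 4 and 2, and of 9 collagen receptors 6, 3 and 0. BMP1, the protease that removes the C-terminal propeptide of fibrillar procollagens, had the highest fold of these genes, at 161.7 with estradiol, 95.8 with LY500307 and 32.6 with ethanol. FKBP10 and P3H4, neighbours that both act on procollagen in the endoplasmic reticulum, shared a region of estradiol fold 111.4, LY500307 fold 46.5 and ethanol fold 6.18. ADAMTS2, which removes the N-terminal propeptide, had 93.5 with estradiol and 43.3 with LY500307, and PLOD2, a lysyl hydroxylase that shapes collagen cross-links, had 78.6 with estradiol, 33.5 with LY500307 and 5.89 with ethanol. PCOLCE, the enhancer of BMP1 activity, had 69.6, 18.8 and 5.72 in the same order. SERPINH1, the collagen chaperone HSP47, had 64.3 with estradiol and 12.8 with LY500307. Among all genes of each family with an estradiol region, the highest fold of a gene ran from 4.91 to 111.4 for modification and folding, from 5.18 to 161.7 for processing, and from 5.36 to 26.9 (DDR2) for the receptors. Of the 12 laminin chain genes, the other large family of the basement membrane, 10 had an estradiol region (83.3%), 8 an LY500307 region (66.7%) and 3 an ethanol region (25%), beside the same 60.7%, 33.3% and 14.1% of all genes. None of these family counts allowed for gene length. For the genes of this paragraph it was not checked whether a region lay inside the gene or nearer to the TSS of another gene.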

How the data were processed

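The 3 treatments were each represented by 1 deposited narrowPeak list. Per the submitters' processing notes, the hg38 build, MACS2 2.1.1.20160309, DiffBind and Bowtie2 2.2.6 were used, with no role given for any. The fold is a ratio of ChIP signal over background made by the authors, and the deposited -log10 q is that of their peak caller. The deposited score, which follows the -log10 q, was left unused, and the summit is a deposited offset from the region start. Only autosomal, X and Y regions entered (2905 of 2911 ethanol, 26861 of 26896 estradiol and 10045 of 10059 LY500307 records). No region ran past the end of its hg38 sequence, and genes came from GENCODE 44. Regions of different lists were shared when they overlapped by at least 1 base. Motifs were sought in the hg38 sequence of the 201 bases around each summit. A position class was taken in the order promoter, 5' UTR, coding exon, 3' UTR, intron, intergenic.

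Members and lists were chosen with earlier results of these data known. The regions described in full were the 10 collagen regions of highest estradiol fold, the 5 highest with LY500307 and with ethanol, those in all 3 lists, those with an unbroken ERE, those outside the estradiol list, and the 3 genes with the most estradiol regions; other values are examples from each class. Because a treatment has 1 list there was no test, and shares carry Wilson intervals at 95%. Alternatives were other distances to the TSS, stricter -log10 q and fold minimums, equal list lengths, other ERE, promoter and overlap definitions. Assignment and motif code was tested on simulated data. Python 3.11.15, numpy 2.4.6, scipy 1.17.1 and matplotlib 3.10.9 were used. The single libraries and the inputs were not analysed here.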

Additional observations from a re-analysis of the deposited data

How the results depend on the processing

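Of 87 alternative values, 71 stayed within 1.5 times the main count or inside the interval of the share, and 16 moved. Counting regions up to 100 kb from a TSS gave 16 collagen genes with ethanol (36.4%, against 31.4% of all protein-coding genes by the same rule). It gave 22 regions with ethanol, 247 with estradiol and 89 with LY500307. Taking the 2905 regions of highest fold gave 10 genes and 13 regions with estradiol, and 10 genes and 15 regions with LY500307. In each of these lists that was 22.7% of collagen genes against 11.6% of all genes, not weighted to gene length. Without COL15A1 and COL18A1, an alternative chosen after seeing the data, 7 ethanol regions remained. An ERE without mismatch was in 1.57% of estradiol and 4.17% of LY500307 collagen regions, against 1.65% and 1.84% of the whole lists. One with at most 2 mismatches was in 42.5% and 45.8%, against 44.6% and 46.9%. With promoters of 2500 bases on either side, 22.0% of estradiol collagen regions were in one, and no whole-list share was set beside this. The share of LY500307 regions overlapping an estradiol region was 83.3% when at least 50% of each had to be covered and 100% at a -log10 q of 5 or more in both lists. Some of these alternatives widened or narrowed a definition, and others shortened the lists or left out COL15A1 and COL18A1. Why each value moved was not tested.

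Leaving out a replicate was not possible, since each list describes a pool. No paired analysis was possible because the lists carry no replicate numbers. The 3 lists differ in length and give no read totals, so a missing region and a less deep list cannot be told apart.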
